A study of Mus musculus with 6 samples.

Results

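The genes of glycolysis and of the response to low oxygen were followed around the node and primitive streak of Wnt3a null and wild-type mouse embryos. The list holds 33 names, picked as the enzymes, carriers and oxygen-response genes of 1 linked pathway, and the probe set brightest on average over the 6 arrays on the log2 scale stood for each gene. Of these, 30 were fitted among 18193 genes: 13 of 16 glycolytic enzymes, 5 of 5 carriers and Pdk1, and 12 of 12 other hypoxia response genes. Gapdh was read from the control probe sets of the array, Gpi1 and Eno1 were not analysed here, and Ero1l was found under its current symbol Ero1a.

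The 2 groups were Wnt3a null embryos and wild-type embryos, both on a mixed C57BL/6 and 129/Sv background, taken from embryonic day 7.75 to 8 at 0 to 2 somites. Each group had 3 Affymetrix arrays, and each array held amplified RNA pooled from 3 embryos of 1 genotype and stage, so that a value is a mean over a pool and not over a single embryo. The labels call the pools biological replicates 1 to 3. The dissected region holds several tissues, and fewer cells of a type and less RNA per cell cannot be told apart in it.

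Glycolysis splits glucose into pyruvate in the cytoplasm, and lactate dehydrogenase turns pyruvate into lactate, which leaves the cell through monocarboxylate carriers. Hypoxia-inducible factor, a dimer of an oxygen-sensitive alpha subunit and a stable beta subunit, raises the transcription of most of these enzymes when oxygen is low, and prolyl hydroxylases of the Egln family mark the alpha subunit for destruction when oxygen is present. In the tail end of the vertebrate embryo, glycolytic activity is known to be graded along the body axis and to be tied to Wnt and Fgf signalling.

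The factor binds a short core, ACGTG or GCGTG, and stretches of upstream sequence are shown for the members that the results turn on and for Ldha and Pgk1, whose promoters are textbook examples of its binding. The letters come from RefSeq on GRCm38.p6, run 5′ to 3′ on the gene's strand, lie before the annotated start, and carry each match to either core on either strand in capitals. For genes with several RefSeq starts, 1 start is shown.
Hk1, chr10:62340422-62340632, minus strand: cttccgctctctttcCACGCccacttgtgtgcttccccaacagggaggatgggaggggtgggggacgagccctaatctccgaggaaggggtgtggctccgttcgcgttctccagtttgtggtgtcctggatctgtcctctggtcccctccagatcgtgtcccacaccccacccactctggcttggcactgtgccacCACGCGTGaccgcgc
Hk2, chr6:82774487-82774695, minus strand: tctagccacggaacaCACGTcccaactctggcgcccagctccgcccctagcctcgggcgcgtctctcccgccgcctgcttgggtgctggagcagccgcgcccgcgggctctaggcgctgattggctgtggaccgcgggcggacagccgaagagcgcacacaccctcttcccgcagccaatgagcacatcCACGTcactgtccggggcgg
Aldoc, chr11:78323008-78323042, plus strand: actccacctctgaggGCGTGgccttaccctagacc
Ddit4, chr10:59951866-59951972, minus strand: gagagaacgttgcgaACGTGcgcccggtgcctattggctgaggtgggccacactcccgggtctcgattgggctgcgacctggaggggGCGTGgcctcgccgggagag
Ldha, chr7:46845644-46845789, plus strand: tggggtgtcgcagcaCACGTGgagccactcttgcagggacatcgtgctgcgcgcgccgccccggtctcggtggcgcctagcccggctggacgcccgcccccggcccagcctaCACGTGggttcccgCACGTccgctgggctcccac
Pgk1, chrX:106186935-106186988, plus strand: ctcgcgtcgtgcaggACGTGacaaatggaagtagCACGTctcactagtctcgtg
The Ldha stretch of 146 bases holds 5 matches, counting both strands of the palindrome CACGTG. The Hk1 stretch of 211 bases holds 3 and the Aldoc stretch of 35 bases holds 1. The stretches were cut around matches before the start, and the Hk1 and Aldoc promoters hold further matches after it. These counts therefore do not compare the genes. RefSeq promoters, of 250 bases before to 50 bases after a start, were matched for 31 members, 45 promoters in all, and no entry was matched for Slc2a3 and Ndrg1. Either core was present in 37 of the 45 (82.2%), against 43.8% of 32851 mouse promoters of the same length. Member promoters are rich in CG dinucleotides, with a median of 23.0 against 7 over all promoters, and of the 7071 promoters with at least 23.0 such dinucleotides 74.7% held either core. A match is a run of letters and not a measured binding site.

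No member of the pathway passed the test of null against wild type, and most members had differences near 0. With limma and Benjamini-Hochberg adjustment over all genes, 0 of 18193 genes (0%) had an adjusted p under 0.05, and the smallest adjusted p among the members was 0.863, for Hk1. At an unadjusted p under 0.05, 1 member was lower in null pools (Aldoc) and 1 was higher (Hk1), where the same holds for 390 of all genes (2.14%) in the lower and 550 (3.02%) in the higher direction. The median log2 difference, null minus wild type, was 0.04 over the 30 members, with 14 below 0 and 16 above, against 0.00 over all genes. Within 0.2 of 0 on the log2 scale lay 19 members (63.3%), beside 46.2% of all genes and 69.6% of the 9097 genes at or above the median gene signal, where 29 of the 30 members lie.

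**Figure D1:**
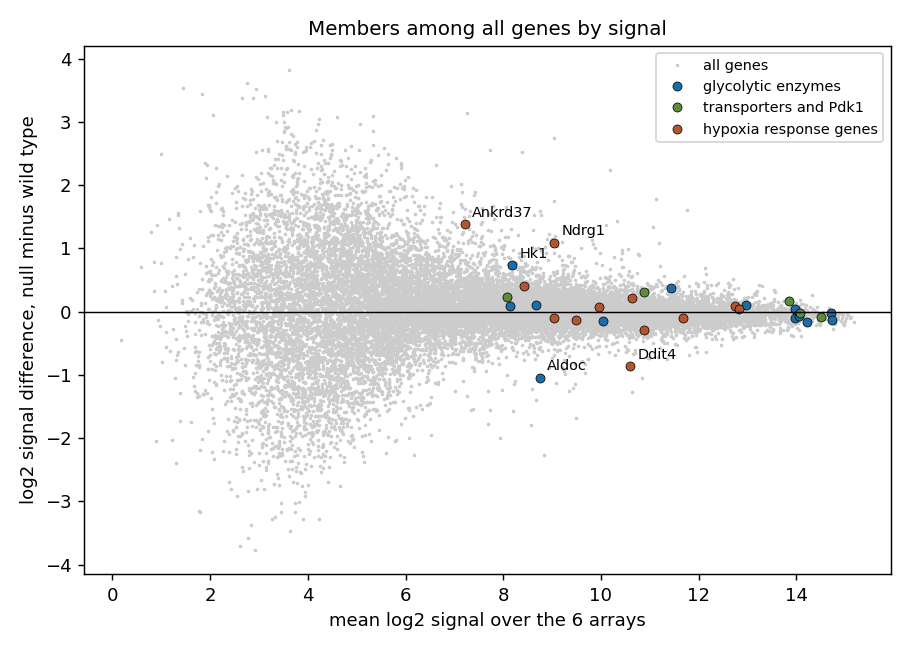
Log2 difference between null and wild-type pools against the mean log2 signal over the 6 arrays, with 1 grey point per gene and coloured points for the 30 fitted members. The bright members lie close to 0, and Aldoc, Hk1, Ndrg1, Ddit4 and Ankrd37 are the members farthest from it.

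The Wnt3a probe set read 961, 761 and 1009 in null pools and 864, 1058 and 996 in wild-type pools. The groups overlapped (log2 -0.10; limma, adjusted p = 1.00), and since the part of the gene that this probe set reads, relative to the null allele, is not known here, its signal does not check the genotype labels. The 15 markers of the primitive streak and presomitic mesoderm, Wnt3a among them, all had lower means in null pools, with a summed signal of 27927 to 32248 against 42162 to 45643 in wild-type pools and a median log2 difference of -0.75, and 2 of them had a mean below the median gene signal of 164. Summed neural plate markers (12 genes, 6 below that median) were 8469 to 11373 (null) and 5412 to 8397 (wild type), and heart markers (11 genes, 7 below it) 2957 to 3758 and 1945 to 2393. In each of these 2 lists 2 genes were lower in null pools. Tbx20 alone had means of 1337 and 644, of summed heart means of 3409 and 2108. Node and notochord sums (9 genes, 5 below that median) were 1300 to 3171 (null) and 1369 to 3522 (wild type). No marker was at a signal of 0. The part of this shift in tissue markers in the members' values was not tested. Null pool 1 had the highest summed endothelial signal, 8906 against 5952 to 6433 on the other 5 arrays, wild-type pool 2 had the highest visceral endoderm signal, 110664 against 46481 to 76630, and wild-type pool 1 lacked Y-linked signal (Eif2s3y 4.31, against 1053 to 1788 elsewhere).

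The first step of glycolysis, the phosphorylation of glucose by hexokinase, held the 2 enzymes whose groups did not overlap. Hk1, the isoform found in most tissues, had signals of 439, 389 and 313 in null pools 1 to 3 and 226, 269 and 190 in wild-type pools 1 to 3. All 3 null pools were above all 3 wild-type pools, and the means were 380 ± 63.4 and 228 ± 39.6 (SD, n = 3 each), a 1.67-fold difference (log2 0.74, 95% interval 0.18 to 1.30; limma, adjusted p = 0.863). Its unadjusted p was no longer under 0.05 without null pool 1 or 2, without wild-type pool 3, without replicate 1 or 3, or with its probe sets averaged, of which the other is dim (signals of 4.91 to 44.8). Hk2, the isoform known for its induction by low oxygen, had 2938, 3913 and 2686 in null against 2093, 2598 and 2578 in wild-type pools. Its groups did not overlap either, but the gap between the lowest null and the highest wild-type pool was small, and the log2 difference of 0.38 had an interval of -0.16 to 0.92 (limma, adjusted p = 0.995). Of all genes, 5.56% were without overlap and higher in null, and 4.56% were without overlap and lower. Among the 13 enzymes 2 were of the first kind and 0 of the second.

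Aldoc, an aldolase isoform best known from brain, went the other way. Its signals were 233, 293 and 389 in null and 678, 377 and 910 in wild-type pools. Wild-type pool 2 lay just below the highest null pool, so the groups overlapped by a narrow margin, and the means of 305 ± 78.5 and 655 ± 267 (SD, n = 3 each) gave a log2 difference of -1.04 (interval -2.02 to -0.07; limma, adjusted p = 0.950). Without wild-type pool 3 the difference was -0.76. A further Aldoc probe set, dim at signals of 2.48 to 60.5, had a difference of 1.34 in the opposite direction, and the mean of both was 0.15. Aldoa, the aldolase of most tissues, had 15141, 14969 and 16716 in null and 19799, 16236 and 14684 in wild-type pools. Here the wild-type pools spanned the null pools, and the log2 difference was -0.11 (interval -0.56 to 0.35).

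Phosphofructokinase, the main control point of the pathway, is built from 3 subunits with separate genes. Pfkl, the liver-type subunit, had 8484, 7387 and 9159 in null and 9411, 7102 and 6907 in wild-type pools, or 0.10 on the log2 scale. Pfkm, the muscle-type subunit, differed by -0.15 and Pfkp, the platelet-type subunit, by 0.10, and the null and wild-type pools overlapped for each of the 3 subunits. Pfkfb3, whose enzyme makes the activator of phosphofructokinase, also differed by 0.10, and its wild-type pools were far apart, at 417, 181 and 263. The interval for Pfkp was the narrowest of these, from -0.29 to 0.50.

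The lower part of the pathway turns triose phosphates into pyruvate and lactate. Pgk1, phosphoglycerate kinase, had 19648, 28347 and 33742 in null pools and 26734, 29131 and 25008 in wild-type pools. The null pools were more spread than the wild-type pools and enclosed them, so that the means of 27245 ± 7112 and 26958 ± 2071 (SD, n = 3 each) nearly coincided (log2 -0.02, interval -0.63 to 0.60). Pgk1 has other probe sets, and 1 of them, with 11012, 12152 and 12973 in null and 17146, 17404 and 13731 in wild-type pools, had a log2 difference of -0.41 and no overlap. The probe sets of Pgk1 thus disagreed in size, and neither difference passed the test.

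Ldha, which makes lactate, had 24177, 25304 and 28241 in null and 25821, 30638 and 28816 in wild-type pools. It was lower in null within each replicate number, by 0.09, 0.28 and 0.03 on the log2 scale, but null pool 3 exceeded wild-type pool 1, and the mean difference of -0.13 had an interval of -0.55 to 0.28 (limma, adjusted p = 1.00). Pkm, pyruvate kinase, had 15773, 17918 and 20529 against 18263, 22194 and 20378, a difference of -0.17 on the log2 scale. Tpi1, triose phosphate isomerase, differed by -0.06 and Pgam1, phosphoglycerate mutase, by 0.04, and both had overlapping groups.

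Gapdh, the dehydrogenase that follows aldolase and a frequent reference gene, was measured by 3 control probe sets along its transcript. The 3′ set had 22198, 25921 and 30028 in null and 25423, 32712 and 32612 in wild-type pools, or -0.22 on the log2 scale (interval -0.73 to 0.30; limma, adjusted p = 1.00, fitted with the other genes in an analysis added after the data were seen). The middle set gave -0.17 and the 5′ set 0.07, so the sign changed along the transcript. The ratio of 3′ to 5′ signal did not overlap, at 2.51 to 3.00 in wild-type and 2.09 to 2.39 in null pools, while that of beta-actin overlapped, at 2.68 to 3.69 in wild-type and 2.38 to 3.83 in null pools. The part of this ratio in the other enzymes' values was not tested.

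Of the 13 enzymes, 7 were below 0 and 6 above, with a median of -0.02 on the log2 scale and a range from -1.04 to 0.74. The 6 enzymes with a mean signal of at least 10000 (Aldoa, Tpi1, Pgk1, Pgam1, Pkm and Ldha) had a median of -0.08, with 5 of 6 below 0. Bright genes in general showed the same tilt: 282 of 378 genes at that signal were below 0, with a median of -0.06. Together with the glucose carriers and Slc16a1 there were 9 members at that signal, and all 9 differed by less than 0.2 on the log2 scale, as did 90.2% of the 378 genes. Their 95% intervals reached from -0.63 to 0.73, so a difference of up to 1.55-fold lower or 1.66-fold higher lay within the interval of at least 1 of them.

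**Figure D2:**
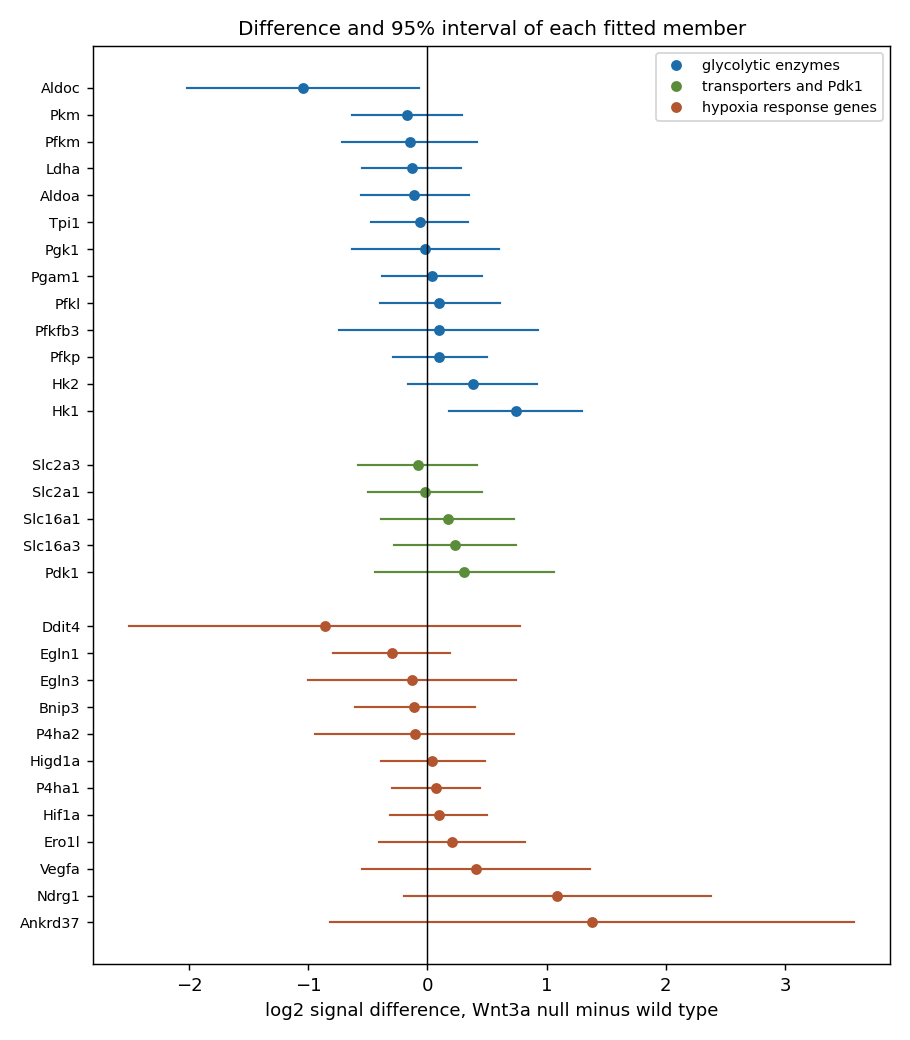
Log2 difference, null minus wild type, of each of the 30 fitted members as a point, with the 95% interval of the limma fit as a line, grouped by role. The intervals of Hk1 and Aldoc do not reach 0, and those of the other 28 members include it.

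The 4 carriers bring glucose in and move lactate out. Slc2a1, the main glucose carrier of the early embryo, had 14704, 17093 and 19649 in null and 15432, 17196 and 19348 in wild-type pools. On this probe set, pools of the same number were nearly equal, with differences of -0.07, -0.01 and 0.02 on the log2 scale. Pools of 1 genotype differed more from each other. The other Slc2a1 probe sets were lower in null within each replicate number, by a log2 difference of -0.12 and -0.13, and their groups overlapped. Slc2a3, a high-affinity glucose carrier, had 19967, 21700 and 26361 against 20391, 26218 and 25301 and a log2 difference of -0.08. Slc16a1, which carries lactate and pyruvate across the membrane, had 13555, 15132 and 19063 in null and 11685, 16620 and 14134 in wild-type pools, a difference of 0.17 with overlap. Slc16a3, the lactate exporter of strongly glycolytic cells, was much dimmer, at 235, 336 and 315 against 228, 260 and 261, and was higher in null within each replicate number (log2 0.23, interval -0.28 to 0.74).

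Pdk1, a kinase that shuts the entry of pyruvate into mitochondria, had 1458, 2699 and 2319 in null and 1776, 1975 and 1355 in wild-type pools. It was lower in null within replicate 1 and higher within replicates 2 and 3, and the log2 difference of 0.31 had an interval of -0.44 to 1.06. It was 0.57 without null pool 1, 0.13 without null pool 2, 0.16 without wild-type pool 3 and 0.08 without replicate 3. Over these carriers and Pdk1, the median difference was 0.17.

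**Figure D3:**
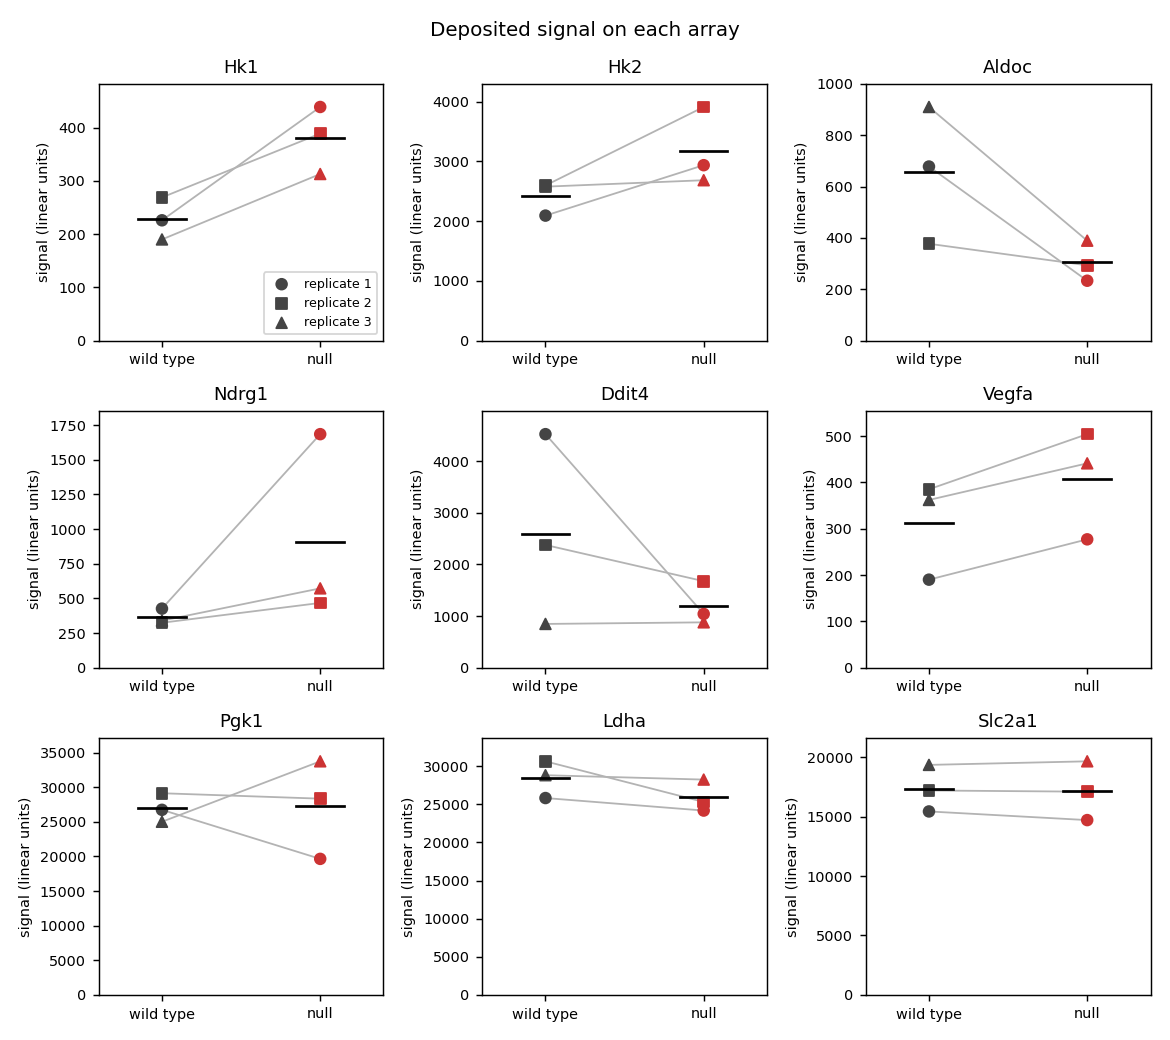
Deposited signal on a linear axis from 0 for 9 members on each array, with grey lines joining pools of the same replicate number and black bars at the group means (n = 3). Null pools of Hk1 (313 to 439) lie above the wild-type pools (190 to 269), Ndrg1 is high in 1 null pool (1684) and Ddit4 in 1 wild-type pool (4521).

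Hif1a, the alpha subunit of hypoxia-inducible factor, had 6823, 7476 and 7108 in null and 5967, 6845 and 7269 in wild-type pools. The groups overlapped, and the log2 difference was 0.10 (interval -0.31 to 0.50; limma, adjusted p = 1.00). Its protein is controlled largely by degradation, which an array of transcripts does not measure. Egln1, the prolyl hydroxylase that sets this degradation in most cells, had 1489, 1849 and 1763 against 2441, 1797 and 2048, a difference of -0.30 with an interval of -0.79 to 0.19. Egln3, a hydroxylase that is itself induced by low oxygen, was highest in wild-type pool 2, at 1194 against 507 to 802 on the other arrays. Its dimmer probe set had 124 in that pool against 79.8 to 113. That pool also had the highest visceral endoderm signal, and the part of that tissue in the Egln3 value was not tested.

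Among the targets of the factor, Ndrg1, a stress-response gene, had the largest difference of the 29 members above the median gene signal. Its signals were 1684, 467 and 572 in null and 426, 324 and 339 in wild-type pools. All null pools were above all wild-type pools, but null pool 1 stood far above the rest, and the means of 908 ± 674 and 363 ± 55.3 (SD, n = 3 each) gave a log2 difference of 1.09 (interval -0.20 to 2.38; limma, adjusted p = 0.975). Without null pool 1 the difference was 0.52. A second bright Ndrg1 probe set was also highest in null pool 1, with 1534, 399 and 459 in null and 417, 294 and 231 in wild-type pools. Its groups overlapped. The dimmer Ndrg1 probe sets differed by 2.05, 0.34 and -0.22 on the log2 scale. Null pool 1 is the pool with the highest endothelial markers. It was also the highest array for node, neural plate and heart markers by median log2 deviation from gene means. These medians were 0.82, 0.45 and 0.36, against 0.62 for endothelium. The part of these tissues in the Ndrg1 value was not tested.

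Ddit4, an inhibitor of growth signalling that stress and low oxygen induce, had the opposite sign and wild-type pools that were far apart. It had 1041, 1675 and 878 in null and 4521, 2376 and 847 in wild-type pools. Wild-type pool 1 was the highest and wild-type pool 3 the lowest of the 6 arrays, so the log2 difference of -0.86 had an interval of -2.50 to 0.78. Without wild-type pool 1 it was -0.30, and without wild-type pool 3 it was -1.51 (limma, adjusted p = 0.841).

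Vegfa, the growth factor of blood vessels, had 277, 504 and 441 in null and 190, 385 and 362 in wild-type pools. It was higher in null within each replicate number, by 0.54, 0.39 and 0.29 on the log2 scale, although the groups overlapped (log2 0.41, interval -0.55 to 1.36; limma, adjusted p = 1.00). The difference was 0.08 without wild-type pool 1, 0.23 without null pool 2 and 0.66 without null pool 1, and 1.00 with its probe sets averaged. With the replicate number as a block, its adjusted p was 0.789 in limma. Ero1l, an oxidase of protein folding, was also higher in null within each number, by 0.20, 0.16 and 0.26, with 1438, 2089 and 1633 in null and 1249, 1868 and 1360 in wild-type pools and a difference of 0.21.

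The remaining targets were close to equal or noisy. P4ha1, a collagen hydroxylase subunit, had 1077, 962 and 1017 against 963, 974 and 978, with a log2 difference of 0.07 and the narrowest spread of the hypoxia genes. Its other P4ha1 probe set, dimmer at signals of 67.8 to 163, was higher in null without overlap, by 0.61. P4ha2 differed by -0.10, Higd1a, a mitochondrial protein, by 0.04, and Bnip3, a mitophagy receptor, by -0.11. Ankrd37, the 1 member below the median gene signal, had 187, 286 and 255 in null and 238, 23.5 and 139 in wild-type pools, with a log2 difference of 1.38 (interval -0.82 to 3.58) that was 0.39 without the low wild-type pool 2. Over the 12 hypoxia genes the median difference was 0.06, with 5 below 0 and 7 above.

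The direction of the enzymes' differences changed with the replicate number. Within replicate 1, 11 of the 13 enzymes were lower in the null pool, with a median log2 difference of -0.16. Within replicate 3, 11 of 13 were higher, with a median of 0.19, and replicate 2 was mixed, with 7 lower and 6 higher. For all genes the shares higher in null were 53.5%, 48.4% and 49.1% in replicates 1 to 3, and for the 378 bright genes 18.8%, 26.7% and 60.1%, so bright genes turned the same way. Among the 17 carriers and hypoxia genes, 14 were higher in null within replicate 3, with a median of 0.26, against 8 of 17 within replicate 1.

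Some members had 1 sign in all 3 replicate numbers. Aldoc and Ldha were lower in each number, and Hk1, Hk2, Slc16a3, Vegfa, Ndrg1 and Ero1l were higher in each. That is 2 and 6 of 30, where 14.7% of all genes were lower and 15.5% were higher in each number, so the members' count as a whole is near the background. Wild-type pool 1 was the highest of the 6 arrays for 6 of the 13 enzymes (46.2%), against 15.2% of all genes and 7.67% of the bright ones. These 6 were Pfkl, Pfkm, Pfkfb3, Aldoa, Tpi1 and Pgam1, a count made after their values were seen, and the part of that pool's sex composition in it was not tested.

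**Figure D4:**
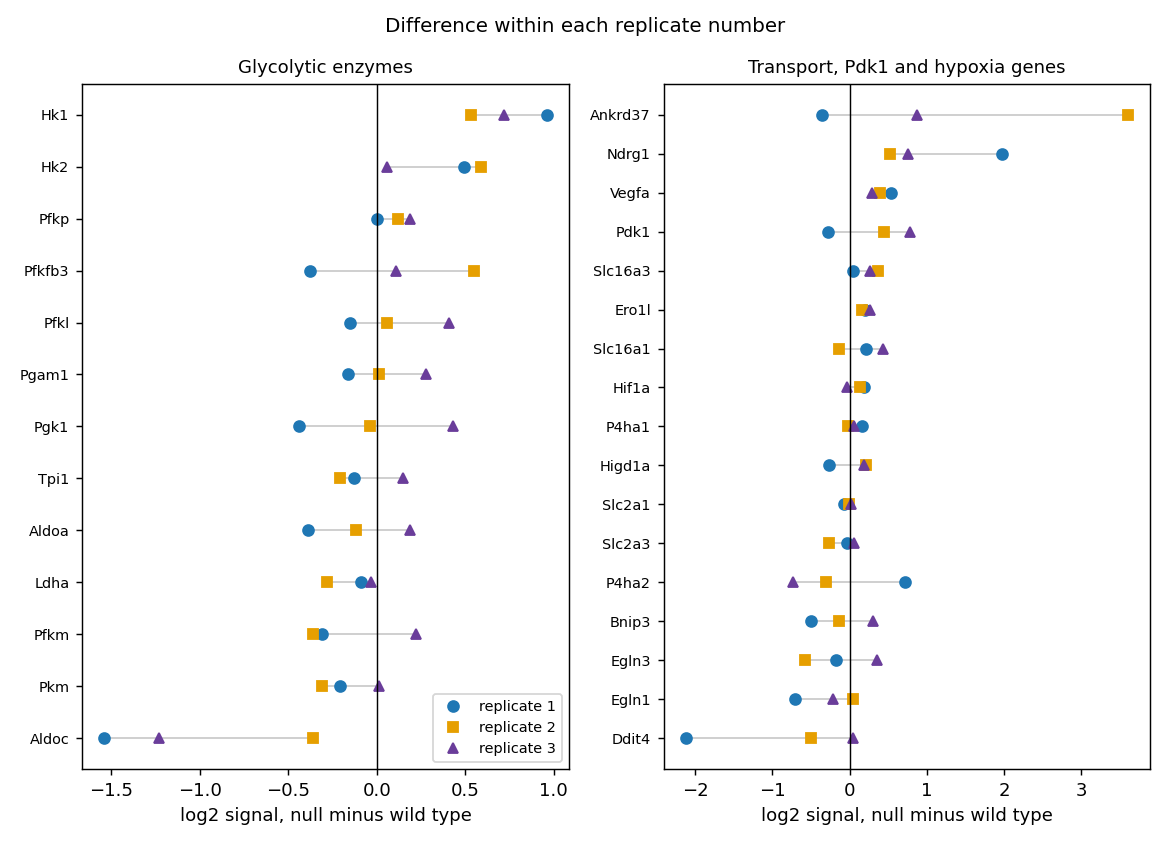
Log2 difference, null minus wild type, of each fitted member within replicate 1 (circles), 2 (squares) and 3 (triangles), enzymes at left and the other members at right. Most enzymes lie below 0 in replicate 1 and above 0 in replicate 3, while Hk1, Hk2, Aldoc and Ldha have 1 sign in all 3.

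The second probe sets gave a view of the same transcripts. Of the members, 20 had further probe sets, 39 in all, and 30 of these 39 had the sign of the chosen one. Among the 23 at or above the median gene signal 19 had that sign. The smallest adjusted p of any member's probe set, over all probe sets, was 0.948.

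A fit that adds the replicate number as a block and lets the variance follow the signal called 11 genes over the array (0.0605%), and none of the 30 members was among them. The smallest adjusted p of a member was then 0.135, for Aldoc, followed by 0.240 for Ndrg1 and 0.271 for Hk1.

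No gene of the neighbouring pathways, taken from lists chosen by pathway, passed the test either, which 0 of all 18193 genes passed. Over 26 further isoforms and branch enzymes of glycolysis the median log2 difference was -0.02. At an unadjusted p under 0.05, 1 of them was lower and 0 were higher, against 2.14% and 3.02% of all genes. The 1 was Fbp1, the enzyme that reverses the phosphofructokinase step, with 86.2, 96.1 and 76.6 in null and 153, 135 and 118 in wild-type pools. All null pools were below all wild-type pools at a dim signal (log2 -0.65; limma, adjusted p = 0.832). Tigar, a phosphatase that lowers the same activator that Pfkfb3 makes, had 451, 491 and 516 against 671, 642 and 586 and -0.38 on the log2 scale (limma, adjusted p = 0.975). Its other probe sets differed by 0.27 and -0.17.

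Among 17 subunits and regulators of hypoxia-inducible factor, 1 was higher and 0 lower at an unadjusted p under 0.05, against 3.02% and 2.14% of all genes. Below 0 were 11 of the 17, against 8954 of all 18193 genes, and the median was -0.10. Arnt, the beta subunit, had 394, 358 and 392 in null and 269, 272 and 262 in wild-type pools. The pools of each genotype were close together and the genotypes apart, with a log2 difference of 0.51 (limma, adjusted p = 0.832). Its other probe sets gave 0.61 and 0.59, and the dimmest of them -0.44 and -0.41. Siah2, a ubiquitin ligase that acts on the Egln enzymes, had 292, 262 and 339 against 396, 346 and 488, a difference of -0.46 (limma, adjusted p = 0.975). Its other probe set, dim at signals of 10.3 to 104, gave -2.04. In this list 7 of 17 genes were lower and 2 higher in each replicate number, against 14.7% and 15.5% of all genes. Without overlap 4 were lower and 2 higher, against 4.56% and 5.56% of all genes. The 4 were Siah2, Tceb1, Crebbp and Cited2, and the 2 were Arnt and Epas1.

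Epas1, the alpha subunit typical of endothelium, was named after its values were seen. It had 5300, 940 and 1092 in null and 591, 805 and 669 in wild-type pools, and null pool 1 was again far above the others (log2 1.37; limma, adjusted p = 0.990). Angpt2, a vessel growth factor and hypoxia target picked in the same way, had 1825 in null pool 1 and 81.1 to 246 on the other arrays. Both stood out in the pool in which Ndrg1 and the endothelial markers were highest. Node, neural plate and heart markers were also highest there by median deviation, and the part of these tissues was not tested.

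Of 35 further hypoxia targets 25 were above 0, with a median of 0.18, against 9239 of all 18193 genes and a median of 0.00. In each replicate number 11 were higher and 2 lower, against 15.5% and 14.7% of all genes. At an unadjusted p under 0.05, 1 gene was higher and 0 were lower, against 3.02% and 2.14% of all genes. The 1 was Lox, a collagen cross-linking oxidase, with dim signals of 110, 72.9 and 64.7 against 64.5, 8.77 and 4.49 (limma, adjusted p = 0.962). Of its other probe sets, which are dimmer, 1 differed by 1.03 and 1 by -0.99. Bhlhe40, a transcription factor induced by low oxygen, had 112, 50.9 and 71.7 against 65.4, 20.4 and 39.7 and a log2 difference of 0.98. Of the 35 genes, 18 were at or above the median gene signal, and the array with the highest median deviation in this list was null pool 1, at 0.38 on the log2 scale against -0.13 to 0.09 on the other 5.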

How the data were processed

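Signals of Affymetrix mouse arrays from 3 null and 3 wild-type pools were used. Per the labels' protocols, RNA of single embryos was amplified, pooled by 3 and amplified again. The deposited value is 1 linear intensity per probe set and array. RMA is named by the submitters' processing notes, without its version, while the intensities are linear and their mean after trimming 2% at each end is the same on each array, and the step that made them was not given in the sources used here.

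Intensities were turned to log2 with no filter or floor. Of 45101 probe sets, 64 controls were left out, as were 932 with several symbols and 9160 not listed in the annotation. The probe set with the highest mean log2 signal stood for each of 18193 genes. Genotypes were compared with limma 3.58.1 in R 4.3.3 (lmFit and eBayes, two-sided, Benjamini-Hochberg over all genes, threshold 0.05), checked on simulated data. An array gives no counts, and 3 arrays per genotype limit the precision. P-values measure the spread between pools.

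The labels number the pools 1 to 3 in both genotypes without saying what a number shares. Deviations from genotype means correlated at 0.448, 0.472 and 0.293 within a number over the 9097 genes at or above the median signal, above the bound of 0.1, so pools of 1 number were treated as pairs in the block. Over all genes the values were 0.0727, 0.0537 and 0.0284.

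Members, lists and tests were chosen with earlier results of these data known. Named were, per role, members at an unadjusted p under 0.05 or with 1 sign in every replicate number and no overlap, then the largest and smallest differences, with Hif1a, Gapdh and the 2 smallest p-values of each further list. Other members were given by their difference, and some by their signals, after their values were seen. Alternatives were all probe sets of a gene averaged, each probe set alone, a filter at the median signal, log2(signal + 50), trend and robust options, array weights, other scalings, the block, and each array or number left out. Promoters and symbols came from RefSeq GRCm38.p6 tables; figures used matplotlib 3.10.9.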

Additional observations from a re-analysis of the deposited data

How the results depend on the processing

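No member was called under any alternative, and 14 of the 30 fitted members kept 1 sign under all of them. Of 599 values, 42 had the other sign. The median over the 13 enzymes ran from -0.17 to 0.15 on the log2 scale and that over the other 17 members from 0.02 to 0.13. Over all genes, limma with trend and robust options called 1 gene lower, the replicate block with these options 9 lower and 2 higher, and a bound of 0.1 on the adjusted p 1 higher, against 0 in the planned fit. The replicate block by itself changed no member's call. At the median signal filter, an unadjusted p under 0.05 was reached by 181 genes in the lower and 275 in the higher direction, and the block with trend and robust options gave 717 and 882. Aldoc was no longer under 0.05 (unadjusted) without null pool 1 or 2 or without wild-type pool 1 or 3. The same held without replicate 1 or 3 and with its probe sets averaged, and the cause was not tested.

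Signs turned as follows, as log2 differences, and the cause was not tested. With all probe sets of a gene averaged, Pfkp was -0.12, Aldoc 0.15 and Hif1a -0.18. With cyclic loess, Tpi1 was 0.01, Pgk1 0.07 and Slc2a1 0.05. With quantile normalization, Pgk1 was 0.08, Slc2a1 0.04 and Slc2a3 0.03, and with array weights Pgk1 was 0.11 and Slc2a1 0.01. With median centring, Pgam1 was -0.01 and Higd1a -0.01. With arrays or replicate numbers left out, the ranges were Pfkl -0.05 to 0.25, Pfkm -0.33 to 0.01, Pfkfb3 -0.19 to 0.41, Aldoa -0.25 to 0.03, Tpi1 -0.17 to 0.01, Pgk1 -0.24 to 0.20, Pgam1 -0.08 to 0.15, Slc2a1 -0.12 to 0.09, Slc2a3 -0.19 to 0.01, Bnip3 -0.32 to 0.09, Egln3 -0.42 to 0.20, P4ha2 -0.52 to 0.21 and Higd1a -0.04 to 0.20.

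With 3 pools per genotype, differences smaller than the intervals were not detectable, and larger ones could also miss the test. The intervals of Hk1 (0.18 to 1.30) and Aldoc (-2.02 to -0.07) excluded 0, with adjusted p of 0.863 and 0.950 in limma. The least precise members were Ankrd37, Ddit4 and Ndrg1, with standard errors of 0.88, 0.66 and 0.52 on the log2 scale. Tissue makeup and genotype cannot be told apart in these pools.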

Other observations

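No gene of mitochondrial metabolism or of the pentose phosphate pathway passed the test, which 0 of all 18193 genes passed. Of 27 genes of pyruvate dehydrogenase and the citric acid cycle, 0 were lower and 1 was higher at an unadjusted p under 0.05 in limma. Over all genes the shares were 2.14% and 3.02%. Within 0.2 of 0 on the log2 scale lay 22 of the 27 (81.5%), beside 46.2% of all genes. Among genes at or above the median gene signal, where 24 of the 27 lie, that share was 69.6%. Pdhb, a subunit of the dehydrogenase that Pdk1 restrains, had signals of 5722, 5496 and 4867 in null and 4255, 3990 and 3748 in wild-type pools. All null pools were above all wild-type pools, by 0.42 on the log2 scale (limma, adjusted p = 0.950), and its second, dimmer probe set gave 0.48. Idh3b, a subunit of isocitrate dehydrogenase, had 3942, 3875 and 4936 against 5614, 4974 and 6746, a difference of -0.44 (limma, adjusted p = 0.975), and another bright probe set gave -0.40. All 3 null pools of Idh3b were below all wild-type pools.

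Of 25 genes of the respiratory chain and ATP synthase, 17 were below 0, against 8954 of all 18193 genes, with a median of -0.05. Within 0.2 of 0 lay 23 of them (92.0%), beside 46.2% of all genes and 69.6% of those at or above the median gene signal. The smallest p-values belonged to Cox5b, a subunit of cytochrome oxidase, with a log2 difference of -0.21, and Ndufb5, a subunit of the NADH dehydrogenase, with 0.22. A second Ndufb5 probe set gave -0.16. Over 9 genes of the pentose phosphate pathway, a branch that starts from glucose 6-phosphate, the median was 0.07. Pgd, an enzyme of its oxidative arm, had 10147, 11420 and 11830 in null and 12420, 13225 and 12321 in wild-type pools, lower without overlap (log2 -0.19, adjusted p = 1.00 in limma). Shpk, at dim signals of 5.31 to 37.4, differed by 1.12.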
